A study of Mus musculus with 6 samples.

Results

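Cytochrome P450 genes of families 1 to 4 were followed in 6 mouse livers, of which 3 were labelled WT and 3 were labelled iKO. The members are the genes whose symbol starts with Cyp, a family number from 1 to 4, a subfamily letter and a number, leaving out 5 genes. This gave 70 members of the 17441 genes in the deposited table, and 55 of them passed the filter on low counts. The iKO label stands for a tamoxifen-inducible knockout of Nek7, a kinase of the NIMA family, in the whole body. All 6 mice, the WT controls included, had been injected with tamoxifen 10 days before the liver was taken. The labels give no promoter or driver for the recombinase, no strain, no age, no sex and no hour of collection. They number the livers and say nothing more of how they were kept apart, so p-values measure the spread between these samples.

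P450s are heme enzymes of the endoplasmic reticulum that insert an oxygen atom into lipophilic substrates with electrons passed on by P450 oxidoreductase. Families 1 to 3 are known in the liver for the oxidation of drugs, toxicants, steroids and bile acids, and family 4 for the hydroxylation of fatty acids at the end of the chain. Their genes lie in clusters of close relatives, and in mouse liver several are known to be transcribed mainly in females or mainly in males under the pattern of growth hormone release.

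A check of the labels comes before the results. Nek7 was read at 55.5, 40.5 and 36.3 CPM in the WT livers, and the livers labelled iKO held 50.2, 32.8 and 31.0 CPM. CPM is a gene's count scaled to a common library size, here with factors from the trimmed mean of M-values (TMM), and compares 1 gene between livers. The log2 difference of Nek7 was -0.22 (SE 0.23; edgeR's quasi-likelihood test gave an adjusted p of 0.541), so these gene counts did not separate the groups by the targeted gene, and the labels do not say which exons were deleted. The Y-linked genes Ddx3y and Kdm5d together held between 573 and 1113 expected counts in WT 1 and in iKO 1, iKO 2 and iKO 3, and 0 in WT 2 and WT 3. The 2 libraries without Y-linked reads are therefore both WT, and each result below is given with that split in view. The libraries held between 18139500 and 19912000 expected counts, with TMM factors from 0.7803 in iKO 1 to 1.176 in WT 2. Hepatocyte markers were abundant in every library, at 113706 to 140219 CPM in sum. Of the 12 tested stellate cell and fibroblast markers 8 were lower in the livers labelled iKO and none higher, with summed levels of 377 to 647 CPM in WT 1 to 3 against 186 to 219 CPM in iKO 1 to 3, and none of the 12 was at 0 in all libraries. In the same direction went 5 of 9 Kupffer cell markers, 3 of 9 sinusoidal endothelial markers and 5 of 7 neutrophil markers, beside 8.07% of all tested genes called lower. Most of these markers were also higher in the 2 livers without Y-linked reads than in the other 4, without overlap. This held for 11 of 12 stellate, 8 of 9 Kupffer, 9 of 9 endothelial and 5 of 7 neutrophil markers, beside 17.7% of all tested genes. With a term for that split in the fit, 3 stellate markers and 1 neutrophil marker were called, and the other calls were lost. Across tested genes the log2 difference between the labelled groups fell with transcript length (rank correlation -0.353). With an offset for transcript length in the fit, the endothelial calls of Stab2, Kdr and Cdh5 were lost. So were the stellate calls of Des and Vipr1 (adjusted p from 0.0668 to 0.134 by edgeR over these genes). The called Kupffer and neutrophil markers were kept. In bulk liver, fewer cells of a type and less RNA per cell cannot be told apart.

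Before the values, 8 stretches of upstream sequence are shown for the members the results turn on. Each holds the 250 bases before the annotated start of the gene in RefSeq on GRCm38.p6, which is not the mm9 build the authors used, and 56 of the 70 members had such a window. The first pair belongs to Cyp2b9 (chr7:26173159-26173408, + strand) and Cyp2b13 (chr7:26061245-26061494, + strand), shown because their levels parted in the iKO livers. Capitals mark the letters AGGTCA, the core that many nuclear receptors bind, at positions -138 to -133 from the start.
Cyp2b9: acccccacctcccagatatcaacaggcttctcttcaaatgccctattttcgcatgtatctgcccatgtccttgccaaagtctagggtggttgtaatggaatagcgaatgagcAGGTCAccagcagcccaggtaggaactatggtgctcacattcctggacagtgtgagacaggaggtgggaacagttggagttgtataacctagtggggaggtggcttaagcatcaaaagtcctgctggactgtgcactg
Cyp2b13: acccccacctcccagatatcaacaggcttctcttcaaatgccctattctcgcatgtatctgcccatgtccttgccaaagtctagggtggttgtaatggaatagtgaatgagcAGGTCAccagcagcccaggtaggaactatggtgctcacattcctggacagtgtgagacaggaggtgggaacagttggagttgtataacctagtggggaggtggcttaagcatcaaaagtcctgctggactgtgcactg
The 2 windows were identical at 248 of 250 positions, or 99.2%.

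The next 2 windows belong to Cyp3a41a (chr5:145720137-145720386, - strand) and Cyp3a16 (chr5:145469724-145469973, - strand), 2 genes read mainly in the livers without Y-linked reads. Capitals mark CAAAGTCCA, a form of the element that hepatocyte nuclear factor HNF4 binds.
Cyp3a41a: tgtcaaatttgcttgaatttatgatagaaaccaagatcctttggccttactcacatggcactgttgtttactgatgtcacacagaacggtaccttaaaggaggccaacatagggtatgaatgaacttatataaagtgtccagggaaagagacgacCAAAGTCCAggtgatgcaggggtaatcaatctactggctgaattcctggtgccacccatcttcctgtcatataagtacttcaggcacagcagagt
Cyp3a16: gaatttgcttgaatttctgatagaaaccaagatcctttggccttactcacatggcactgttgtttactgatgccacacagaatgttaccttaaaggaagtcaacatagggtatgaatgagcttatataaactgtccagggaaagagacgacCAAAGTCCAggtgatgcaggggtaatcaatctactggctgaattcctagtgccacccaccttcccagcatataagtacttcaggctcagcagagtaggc
They were 93.9% identical over 246 aligned positions. Cyp3a59 (chr5:146079008-146079257, + strand) is shown because its difference between the groups held in every processing tried. Capitals mark AGGTCA at -177 to -172 and the same letters on the opposite strand, TGACCT, at -156 to -151.
Cyp3a59: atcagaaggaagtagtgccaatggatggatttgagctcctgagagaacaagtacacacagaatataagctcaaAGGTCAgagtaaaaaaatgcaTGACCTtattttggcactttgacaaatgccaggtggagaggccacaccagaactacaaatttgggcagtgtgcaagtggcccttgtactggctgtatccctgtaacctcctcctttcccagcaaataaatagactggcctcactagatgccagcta
The last 3 windows belong to Cyp2c40 (chr19:39812815-39813064, - strand), Cyp2c69 (chr19:39886770-39887019, - strand) and Cyp2c67 (chr19:39649043-39649292, - strand), neighbours with similar upstream sequence and unlike levels across livers. Capitals again mark CAAAGTCCA.
Cyp2c40: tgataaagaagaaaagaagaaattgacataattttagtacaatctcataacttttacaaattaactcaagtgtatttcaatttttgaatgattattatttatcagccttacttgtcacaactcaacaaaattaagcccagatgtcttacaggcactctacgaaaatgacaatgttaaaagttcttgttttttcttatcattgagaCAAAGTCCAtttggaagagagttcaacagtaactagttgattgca
Cyp2c69: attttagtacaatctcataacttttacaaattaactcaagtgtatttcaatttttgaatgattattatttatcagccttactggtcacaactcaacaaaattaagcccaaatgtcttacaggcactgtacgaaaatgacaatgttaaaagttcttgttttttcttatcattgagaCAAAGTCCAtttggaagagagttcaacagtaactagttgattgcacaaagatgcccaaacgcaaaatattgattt
Cyp2c67: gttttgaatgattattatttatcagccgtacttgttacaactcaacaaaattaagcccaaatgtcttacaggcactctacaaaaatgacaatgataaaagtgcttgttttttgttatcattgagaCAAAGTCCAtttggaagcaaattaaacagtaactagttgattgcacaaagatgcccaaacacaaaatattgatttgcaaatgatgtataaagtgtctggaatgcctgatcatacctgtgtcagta
Cyp2c40 and Cyp2c69 were identical at 217 of 220 aligned positions (98.6%), and Cyp2c67 was 92.9% identical to Cyp2c40 and 93.0% to Cyp2c69, each with its start placed differently along the shared sequence.

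The exact letters CAAAGTCCA, searched on both strands, were in the windows of 8 of 56 members (14.3%) and in 0.451% of 27025 gene windows of the same length. The 8 were Cyp2c40, Cyp2c65, Cyp2c67, Cyp2c68, Cyp2c69, Cyp2c70, Cyp3a16 and Cyp3a41a, several of them near-identical copies, so these are not 8 independent occurrences. AGGTCA was in 14 members (25%) against 15.8% of all windows. The STAT-type palindrome TTCNNNGAA was in 3 members (5.36% against 8.13%), and TTATGNAA, a form of the D-box that Dbp and Tef bind, was in 4 (7.14% against 3.63%). The xenobiotic response core GCGTG was in 12 members (21.4% against 30.9%), Cyp1a1 and Cyp1b1 among them, and the E-box CACGTG in 2 (3.57% against 6.86%). A match is a run of letters and was not tested for binding.

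By level per transcript length (FPKM, the unit in which genes can be compared with each other), the Cyp2c and Cyp2d subfamilies made up most of the members' signal. Cyp2c held 41.2% and Cyp2d 24.6% of the members' mean FPKM, followed by Cyp2f at 7.79%, Cyp2a at 6.66%, Cyp4a at 6.51%, Cyp4f at 3.61%, Cyp3a at 2.96%, Cyp2j at 2.73%, Cyp2b at 2.17% and Cyp4v at 1.46%. These are means over 6 livers, and for Cyp2b no single liver was near it: its share was 5.52% and 5.66% in WT 2 and WT 3 and 0.0661% to 0.411% in the other 4. The leading genes were Cyp2c29, a CAR-responsive epoxygenase, at a mean of 707 FPKM (287 to 875 over the 6 livers), Cyp2d26 at 689 FPKM (557 to 819) and Cyp2c50 at 685 FPKM (583 to 828). Their ranges overlapped, so no order among these 3 is given. Cyp2f2, which activates naphthalene, stood at 565 FPKM, Cyp2d10 at 529 FPKM and Cyp2c70, which makes the muricholic acids of mouse bile, at 468 FPKM, and these first 6 genes carried 50.2% of the members' total. At the other end, 15 members did not pass the filter on low counts: 13 of them were at or below 1 CPM in every liver, and Cyp2j12, Cyp4a29 and Cyp4a30b had no count in any. The 2 untested members above 1 CPM in some liver were Cyp3a44 and Cyp4f39. Cyp3a44 reached 6.08 and 8.75 CPM in WT 2 and WT 3 and was at or below 0.425 CPM in the other livers. All 70 members together made up 0.974% to 1.44% of each library's summed TPM.

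**Figure D1:**
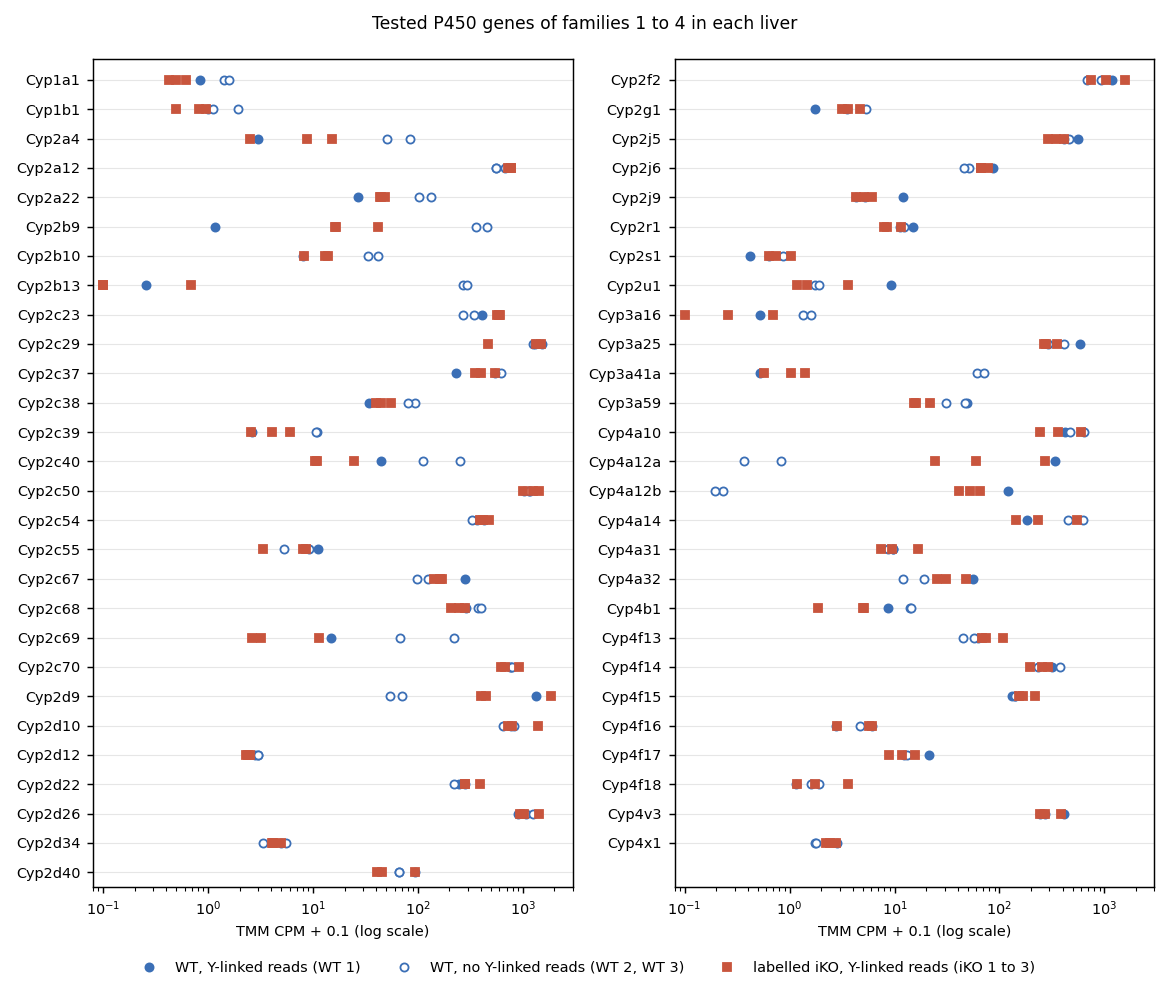
Level of each of the 55 tested members in each liver, as TMM CPM plus 0.1 on a log axis, with WT as circles (open where no Y-linked reads were found) and livers labelled iKO as squares. Among members with at least 3 expected counts in every liver, the highest CPM over the lowest runs from 1.32-fold for Cyp2d12 to 1271-fold for Cyp4a12a. The open circles of Cyp4a12a stand far to the left of its other points. Cyp2b13, Cyp3a16 and Cyp4a12b fell below that bound in some liver and were given no ratio, with Cyp2b13 running from 0 to 293 CPM.

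The comparison of the groups asked which of these genes differed in livers labelled iKO. Of 55 tested members 5 did, at an adjusted p under 0.05 over all 13160 tested genes: Cyp3a59, Cyp4b1, Cyp2c40 and Cyp1a1 were lower and Cyp2c23 was higher. That is 9.09% of the members, beside 15.4% of all tested genes, of which 7.31% were higher and 8.07% lower. The median log2 difference was -0.32 over the 55 members and -0.02 over all tested genes, with a median standard error of 0.36 for the members and 0.22 for all genes. The 3 WT values did not overlap the 3 iKO values in 12 members (21.8%), 4 higher and 8 lower, beside 39% of all tested genes (19.8% higher and 19.2% lower). DESeq2, run as an alternative, called 8 members beside 20.3% of its tested genes. The share of members called was thus below that of all genes in both of these fits, which used all 6 livers. That order was not kept in every fit. The count of members rested on single livers: it was 1 without WT 2 or without WT 3, 2 without iKO 3, 3 without iKO 1 and 17 without WT 1. Over all 13160 tested genes the counts were 493 without WT 2, 944 without WT 3, 938 without iKO 3, 1434 without iKO 1 and 1815 without WT 1. Without WT 1 the 17 of 55 members stood above the share of all tested genes, 13.8%. With an offset for transcript length the count of members was 2, Cyp3a59 and Cyp4b1, beside 1505 of the 13160 tested genes. Most of the abundant members had intervals around 0: Cyp2c50 was at 0.15 (95% interval -0.36 to 0.65), Cyp2c70 at -0.06 (-0.56 to 0.44), Cyp2d26 at 0.08 (-0.49 to 0.64) and Cyp2f2 at 0.27 (-0.45 to 0.99) on the log2 scale.

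**Figure D2:**
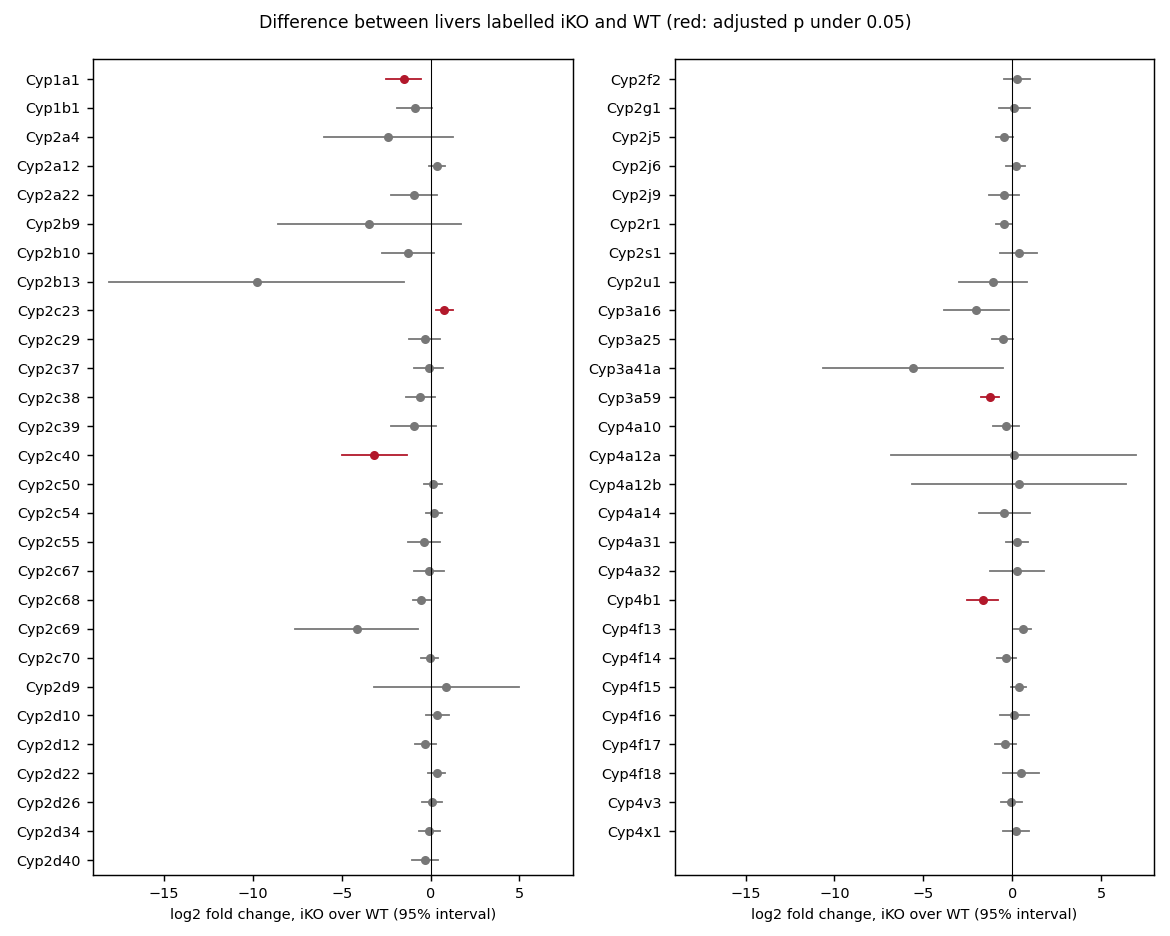
Log2 fold change, iKO over WT, of each of the 55 tested members with its 95% interval from the quasi-likelihood fit; red marks the 5 called members. The intervals of Cyp2b13, Cyp4a12a and Cyp4a12b are the widest, while that of the called Cyp3a59 runs from -1.76 to -0.77.

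Cyp3a59, a CYP3A enzyme in the gene cluster of the main drug-oxidising P450s, was the one member called under every setting tried. It was read at 49.5, 46.7 and 30.9 CPM across WT 1 to 3 against 15.1, 21.8 and 15.8 CPM across iKO 1 to 3. Every WT liver was above every iKO liver, whether or not it held Y-linked reads. The log2 difference was -1.27 (SE 0.22, adjusted p = 0.00799 by edgeR), and it passed the threshold in each of the 18 alternative settings, with adjusted p from 3.16e-05 to 0.0455 and log2 values from -1.73 to -1.14. Its transcript is 97.0% identical to that of Cyp3a25, and its counts were not whole in 5 of the 6 libraries, so its reads may have been split with a relative or among its own transcripts, and its level is uncertain to that extent. Cyp3a25 itself was at 584, 417 and 289 CPM across WT 1 to 3 against 263, 351 and 280 CPM across iKO 1 to 3, overlapping, with a log2 difference of -0.53 (SE 0.27, adjusted p = 0.203).

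Cyp4b1, which oxidises fatty acids and activates furan toxicants, was the next. It was at 8.55, 13.9 and 14.4 CPM in the 3 WT livers, with 5.06, 4.88 and 1.76 CPM in iKO 1 to 3, with no overlap and the highest values in the 2 livers without Y-linked reads. The log2 difference was -1.66 (SE 0.38, adjusted p = 0.024 by edgeR). It lost the call without WT 2 (adjusted p = 0.0944), without WT 3 (0.0704) and once a Y-linked term entered the fit (log2 difference -1.14, adjusted p = 0.282). Its counts were whole in every library, and no transcript with close identity was found for it.

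Cyp2c23, an epoxygenase of arachidonic acid, was the only called member that was higher. It stood at 411, 268 and 346 CPM across WT 1 to 3 against 568, 606 and 588 CPM across iKO 1 to 3. The 3 iKO livers lay close together in CPM above all 3 WT livers, and WT 1, the WT liver with Y-linked reads, was the highest of its group. In FPKM, without TMM factors, WT 1 to 3 were at 214, 164 and 188 and iKO 1 to 3 at 231, 313 and 327. The log2 difference was 0.78 (SE 0.22, adjusted p = 0.0404 by edgeR), called in 6 of 18 alternatives and not with the Y-linked term (0.51, adjusted p = 0.435). Leaving out WT 2 or WT 3 gave adjusted p of 0.186 and 0.101, and leaving out iKO 1, iKO 2 or iKO 3 gave 0.0518, 0.0788 and 0.076.

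Cyp2c40, an arachidonic acid hydroxylase of the female-predominant group, was at 44.2, 113 and 250 CPM in the 3 WT livers, with 10.4, 24.3 and 10.9 CPM in iKO 1 to 3. WT 1 was above the 3 iKO livers and below the other WT livers. The log2 difference was -3.16 (SE 0.74, adjusted p = 0.0432 by edgeR), called in 7 of 18 alternatives and not with the Y-linked term (-1.54, adjusted p = 0.251). Without WT 2, without WT 3, without iKO 1 and without iKO 3 the adjusted p was 0.148, 0.0804, 0.157 and 0.12. Its transcript is 97.6% identical to that of Cyp2c67 where they align, and its counts were not whole in any library.

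Cyp1a1, the hydrocarbon-inducible target of the aryl hydrocarbon receptor, was low in every liver. It held 13.57, 29.85 and 30.73 expected counts in WT and 6.23, 6.11 and 10.16 in iKO, which is 0.743, 1.33 and 1.5 CPM against 0.400, 0.322 and 0.519 CPM. The groups did not overlap, at a log2 difference of -1.51 (SE 0.44, adjusted p = 0.0475 by edgeR). The call was made in 3 of 18 alternatives and lost with each of 5 of the 6 libraries left out, with WT 1 as the exception, and with the Y-linked term (-0.83, adjusted p = 0.484). Cyp1b1, the other listed target of the receptor and a gene known from stellate cells, was at 0.903, 1.82 and 1.01 CPM across WT 1 to 3 against 0.400, 0.858 and 0.726 CPM across iKO 1 to 3, at -0.90 (SE 0.45, adjusted p = 0.193). The lower level of 8 of 12 stellate markers, of which 3 were called with the Y-linked term, stands beside both genes, and its part in their values was not tested.

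**Figure D3:**
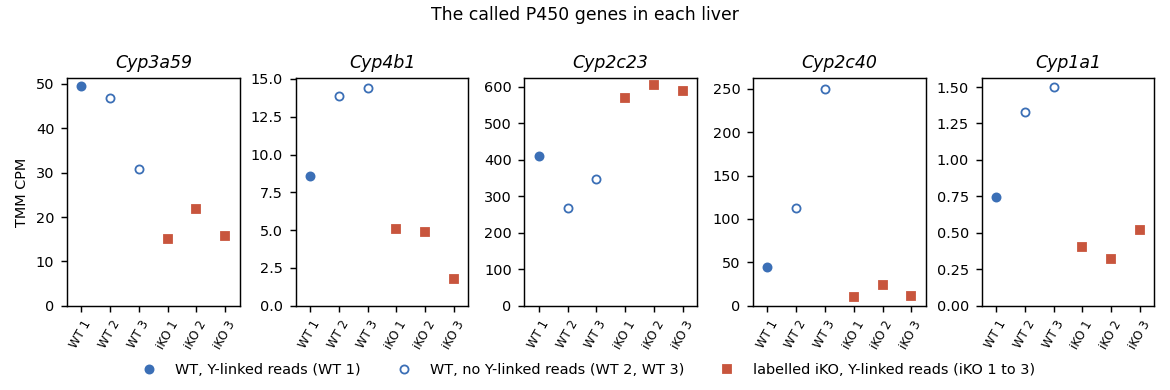
TMM CPM of the 5 called members in each liver on linear axes from 0, with WT as circles (open without Y-linked reads) and iKO as squares. The 3 iKO squares stand apart from the 3 WT circles in every panel, at 15.1 to 21.8 CPM against 30.9 to 49.5 CPM for Cyp3a59.

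Several members differed widely between the 2 livers without Y-linked reads and the other 4, WT 1 included. In 24 of 55 tested members (43.6%) the 2 livers without Y-linked reads did not overlap the 4 with them, 16 higher and 8 lower, beside 31.1% of all tested genes. With a further bound of 4-fold between the means the count was 10 of 55 (18.2%), beside 1.25% of all tested genes. This bound was chosen after the values were known, and the split is described without a test. All 10 belong to the lists of female-predominant and male-predominant P450s: Cyp2b9, Cyp2b13, Cyp2a4, Cyp3a41a, Cyp3a16, Cyp2c40 and Cyp2c69 were higher without Y-linked reads, and Cyp2d9, Cyp4a12a and Cyp4a12b were lower. Of the 9 listed female-predominant members 8 had this order without overlap, Cyp4a14 being the exception, and of the 3 male-predominant members all 3 did. Over all tested genes 17.7% were higher and 13.4% lower without overlap in the livers without Y-linked reads. These lists name genes already known to differ by sex, and the sex of the mice is not given in the labels. The lists were also written with earlier results of these data known, so that all 10 are on them is not independent support. Of the 24 members without overlap, 14 were on neither list.

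In the Cyp2b subfamily, whose enzymes hydroxylate steroids and barbiturates, this contrast was wide. WT 2 and WT 3 held 360 and 454 CPM of Cyp2b9, WT 1 held 1.06 CPM, and iKO 1, 2 and 3 held 16.5, 41.2 and 16.3 CPM. For Cyp2b13, WT 2 and WT 3 held 269 and 293 CPM, WT 1 held 0.159 CPM and the iKO livers 0, 0.590 and 0 CPM. So the 2 genes moved alike among the WT livers, and in the iKO livers Cyp2b9 was read while Cyp2b13 was at or near 0, although the 250 bases upstream differ at 2 positions. Their transcripts are 89.3% identical where they align, which leaves positions by which reads can be told apart. Counts were still not whole in 6 libraries for Cyp2b9 and in 4 for Cyp2b13. Some reads may thus have been split with a relative or among a gene's own transcripts, and the levels are uncertain to that extent. Between the labelled groups Cyp2b9 was at -3.46 (SE 1.92, adjusted p = 0.292 by edgeR). With the Y-linked term it turned to 4.53 (adjusted p = 0.0368), a value that rests on WT 1 as the one WT liver with Y-linked reads. In the 4 livers with Y-linked reads alone the adjusted p was 0.132. Cyp2b10, the classical target of the receptor CAR, was at 7.97, 41.6 and 33.5 CPM in the 3 WT livers, with 13.7, 12.8 and 8.09 CPM in iKO 1 to 3 (log2 difference -1.27, SE 0.60, adjusted p = 0.201).

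Cyp2a4, a hydroxylase of testosterone and other steroids, was at 2.87, 51.1 and 84.6 CPM across WT 1 to 3 against 2.40, 15.2 and 8.77 CPM across iKO 1 to 3. WT 1 and iKO 1 were alike and lowest, and iKO 2 and iKO 3 stood between them and the livers without Y-linked reads. Cyp2a22 was at 26.7, 133 and 102 CPM in the 3 WT livers, with 44.3, 48.5 and 43.9 CPM in iKO 1 to 3. Cyp2a12, a steroid and bile acid hydroxylase, was by contrast even. It was at 553, 551 and 684 CPM across WT 1 to 3 against 725, 766 and 779 CPM across iKO 1 to 3. Each iKO liver was above each WT liver in CPM, at 0.35 (SE 0.20, adjusted p = 0.268 by edgeR), which did not pass the test. In FPKM, without TMM factors, the groups overlapped, at 340, 400 and 439 across WT 1 to 3 against 350, 468 and 512 across iKO 1 to 3. Cyp2a22 and Cyp2a12 are 96.2% identical in transcript, and Cyp2a4 is 98.2% identical to a gene left out here. Counts of all 3 were not whole in any of the 6 libraries, so the split of reads is uncertain.

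In Cyp3a, Cyp3a41a was at 0.425, 61.1 and 70.8 CPM in the 3 WT livers, with 0.466, 1.29 and 0.934 CPM in iKO 1 to 3. Cyp3a44, which the filter left untested, was at 0.425, 6.08 and 8.75 CPM across WT 1 to 3 against 0, 0.214 and 0 CPM across iKO 1 to 3, and Cyp3a16 at 0.425, 1.24 and 1.5 CPM against 0, 0.590 and 0.156 CPM. WT 1 lay with the iKO livers for Cyp3a41a, far below WT 2 and WT 3. Cyp3a16 and Cyp3a44 are 92.1% and 95% identical to Cyp3a41a in transcript, and Cyp3a41a is 94.7% identical to a gene left out here. The split of reads among the 3 genes, and with the gene left out, is therefore uncertain. The log2 difference of Cyp3a41a was -5.58 (SE 1.90, adjusted p = 0.127 by edgeR) and turned to 1.10 (adjusted p = 0.371) with the Y-linked term.

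In Cyp2c, Cyp2c69 was at 14.8, 67.7 and 222 CPM in the 3 WT livers, with 3.13, 11.3 and 2.54 CPM in iKO 1 to 3, highest in WT 3 and WT 2 like Cyp2c40. WT 1 was above all 3 iKO livers here too, but the log2 difference of -4.16 (SE 1.31) did not pass the test (adjusted p = 0.105 by edgeR). Cyp2c67 ran the other way across the split, at 282, 124 and 98.5 CPM across WT 1 to 3 against 170, 163 and 142 CPM across iKO 1 to 3. Its lowest values were in WT 2 and WT 3, the livers where Cyp2c40 and Cyp2c69 were highest. Cyp2c68 was at 286, 371 and 398 CPM in the 3 WT livers, with 249, 283 and 205 CPM in iKO 1 to 3, without overlap (-0.52, SE 0.21, adjusted p = 0.125). Each of these 4 transcripts is 97.6% to 98.0% identical to its nearest relative, so the split of reads among them is uncertain. The CAR-responsive Cyp2c29 was at 1520, 1255 and 1318 CPM across WT 1 to 3 against 1493, 1325 and 463 CPM across iKO 1 to 3: iKO 3 was low and the others lay together. Cyp2c37, Cyp2c50, Cyp2c54 and Cyp2c55 overlapped between the groups, with log2 differences from -0.37 to 0.19.

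In Cyp2d, Cyp2d9, a testosterone hydroxylase known from male liver, was at 1350, 54.0 and 71.3 CPM in the 3 WT livers, with 1875, 449 and 404 CPM in iKO 1 to 3. WT 1 and iKO 1 were high, iKO 2 and iKO 3 intermediate, and the livers without Y-linked reads lowest. The log2 difference was 0.89 (SE 1.55, adjusted p = 0.737) and -0.57 (adjusted p = 0.757) with the Y-linked term. Of the other Cyp2d members, none of which was called, Cyp2d12 was the most even of all tested members, at 2.2 to 2.9 CPM, and Cyp2d40 was the one with the lowest log2 difference, -0.32 (SE 0.32). Cyp2d10 was at 769, 651 and 820 CPM across WT 1 to 3 against 1411, 724 and 788 CPM across iKO 1 to 3, so that iKO 1 alone was high.

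In Cyp4a, which hydroxylates fatty acids, Cyp4a12a and Cyp4a12b are the male-predominant pair. Cyp4a12a was at 339, 0.266 and 0.725 CPM in the 3 WT livers, with 274, 59.5 and 24.1 CPM in iKO 1 to 3, and Cyp4a12b at 120, 0.133 and 0.0967 CPM against 64.9, 52.4 and 41.2 CPM. Both were below 1 CPM in the livers without Y-linked reads, and iKO 1 was closest to WT 1. Their transcripts are 98.2% identical, so their separate levels are uncertain. Among the targets of the fatty acid receptor PPAR alpha, Cyp4a10 was at 424, 470 and 641 CPM across WT 1 to 3 against 243, 603 and 364 CPM across iKO 1 to 3 (-0.34, SE 0.33, adjusted p = 0.497). Cyp4a14 was at 183, 625 and 446 CPM against 145, 543 and 234 CPM (-0.44, SE 0.60, adjusted p = 0.645), highest in WT 2 and iKO 2. Cyp4a32 was at 55.5, 11.9 and 18.9 CPM in the 3 WT livers, with 47.7, 30.9 and 25.1 CPM in iKO 1 to 3, and Cyp4a31 at 8.65 to 9.61 CPM against 7.39 to 16.7 CPM. None of the 4 was called, and their median log2 difference was -0.04.

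**Figure D4:**
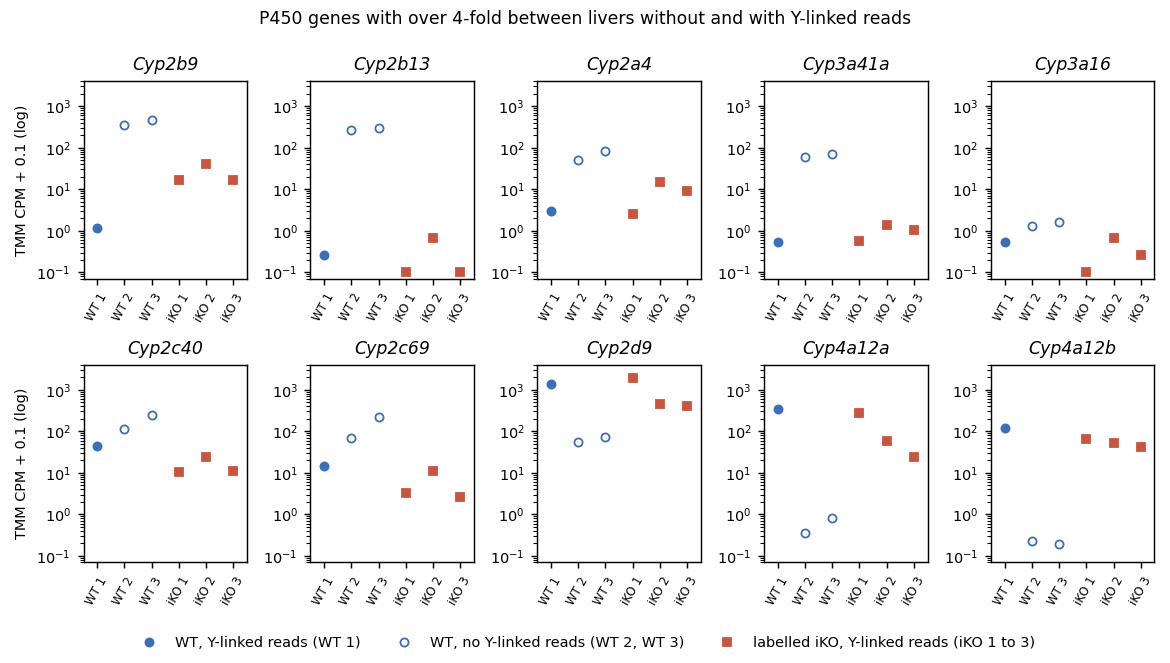
TMM CPM plus 0.1, on log axes, of the 10 members with over 4-fold between the means of livers without and with Y-linked reads, in each liver. The open circles of WT 2 and WT 3 lie above all other points in the 7 panels from Cyp2b9 to Cyp2c69 and below them in the panels of Cyp2d9, Cyp4a12a and Cyp4a12b.

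Of the remaining subfamilies, Cyp4f, which breaks down leukotrienes and other lipids, had no called member among 6 tested: Cyp4f13 was at 62.1, 44.8 and 56.9 CPM across WT 1 to 3 against 107, 67.4 and 73.7 CPM across iKO 1 to 3 (0.60, SE 0.22, adjusted p = 0.086), and Cyp4f15 at 133 to 142 CPM against 155 to 217 CPM (0.37, SE 0.19, adjusted p = 0.195). Both had every iKO liver above every WT liver without passing the test. Cyp4f14, the leading gene of that subfamily, was at 315, 234 and 377 CPM in the 3 WT livers, with 289, 253 and 196 CPM in iKO 1 to 3. Cyp2j5, an epoxygenase, was at 565, 457 and 409 CPM across WT 1 to 3 against 346, 416 and 293 CPM across iKO 1 to 3 (-0.44, SE 0.22, adjusted p = 0.197). Cyp2r1, which adds the first hydroxyl group to vitamin D, was at 14.8, 11.1 and 12.1 CPM in the 3 WT livers, with 7.86, 11.4 and 8.45 CPM in iKO 1 to 3 (-0.45, SE 0.20, adjusted p = 0.157). Cyp2u1 was high in WT 1 alone, at 9.08 CPM beside 1.64 and 1.79 CPM in the other WT livers and 3.53, 1.07 and 1.35 CPM in iKO. Cyp4v3 was at 412, 244 and 271 CPM across WT 1 to 3 against 386, 272 and 244 CPM across iKO 1 to 3, Cyp2f2 at 1190, 679 and 929 CPM against 1583, 1048 and 744 CPM, and Cyp2g1 at 1.65, 3.46 and 5.22 CPM against 3.53, 4.56 and 3.06 CPM. The ranges of these last 3 genes overlapped between the groups.

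A term for Y-linked reads compares the labels within the livers that hold them, which leaves WT 1 as the only WT liver. In that fit 2 members were called, Cyp3a59 at -1.49 (adjusted p = 0.0448) and Cyp2b9 at 4.53 (adjusted p = 0.0368), beside 1.40% of all tested genes. The median over the members was -0.08, and over the 8 tested female-predominant members it moved from -3.31 to 0.56. The median of the 3 male-predominant members moved from 0.40 to -1.19. In the fit that left WT 1 out, so that WT without Y-linked reads met iKO with them, 17 members were called, 13 lower and 4 higher, beside 13.8% of all tested genes. In that comparison genotype and Y-linked reads cannot be told apart.

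**Figure D5:**
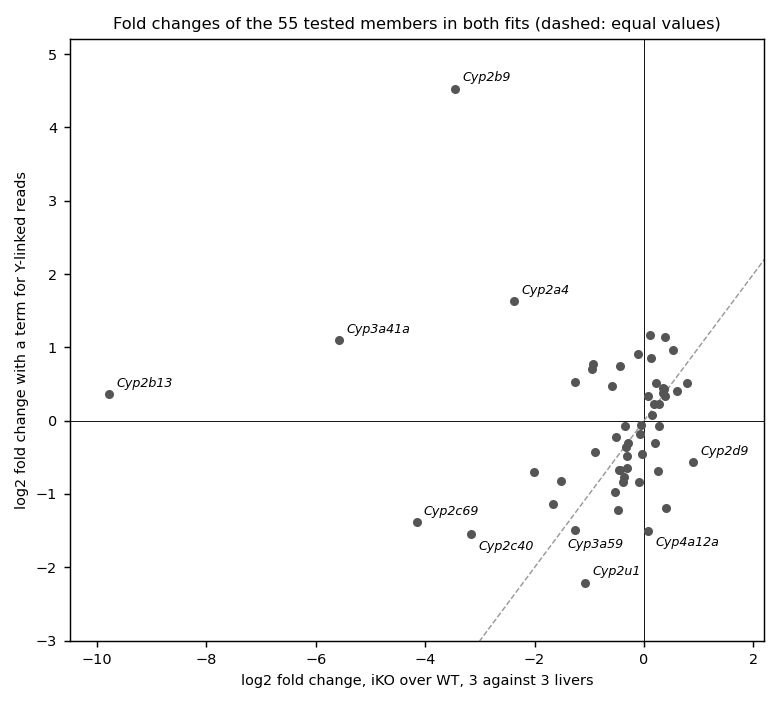
Log2 fold change, iKO over WT, of the 55 tested members in the comparison of 3 against 3 livers (x axis) and in the fit with a term for Y-linked reads (y axis); the dashed line marks equal values. Cyp3a59 keeps its value (-1.27 and -1.49), while Cyp2b13 goes from -9.78 to 0.36 and Cyp2b9 from -3.46 to 4.53.

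The genes that serve or regulate the P450s were read from lists of their redox partners, receptors, transcription factors and heme synthesis. Of 53 tested genes of these lists 15 were called (28.3%, beside 15.4% of all tested genes), 10 higher and 5 lower, with a median log2 difference of 0.23. With the Y-linked term 4 were called, all higher: Por, Alas1, Dbp and Tef. Without WT 2 the count was 6, and without WT 3 it was 9. With a transcript length offset 10 were called, all higher but not the same 10. Onecut1 lost its call (adjusted p = 0.0598 by edgeR) and Ppargc1a, of the receptor list, gained one (0.0484). The 5 lower calls were lost with that offset, as they were without WT 2 or iKO 3. Por, the P450 oxidoreductase that passes electrons to P450s of the endoplasmic reticulum, was at 213, 325 and 306 CPM in the 3 WT livers, with 881, 887 and 713 CPM in iKO 1 to 3 (1.55, SE 0.24, adjusted p = 0.0045 by edgeR). Alas1, which starts heme synthesis, was at 81.9, 116 and 87.5 CPM across WT 1 to 3 against 1743, 1374 and 1042 CPM across iKO 1 to 3 (3.87, SE 0.29, adjusted p = 0.000191). Both were far above WT in every iKO liver, Alas1 being 1 of 10 tested heme supply genes called. Of 7 electron transfer genes the other called one was Cyb5b, a cytochrome b5, at -1.08 (SE 0.23, adjusted p = 0.0175).

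Of 12 tested xenobiotic receptor genes, Nr1i2, which encodes the receptor PXR, was at 51.1, 59.4 and 54.7 CPM in the 3 WT livers, with 88.6, 90.6 and 88.7 CPM in iKO 1 to 3 (0.70, SE 0.15, adjusted p = 0.0171 by edgeR), and Nr3c1, the glucocorticoid receptor, fell by 0.69 on the log2 scale (adjusted p = 0.0267). Of the 11 tested members on the list of CAR and PXR targets 1 was called, Cyp3a59, and it was lower. Among 11 hepatocyte factors 5 were higher, with Onecut1 at 2.15, Cebpb at 2.00 and Foxa3 at 1.65, and 1 was lower, Nr5a2 at -0.60. In the growth hormone list 2 of 9 were called, Stat5a at -0.66 and Stat5b at -0.77, both lower and both transducers of the growth hormone signal. The list did not go one way. Uncalled but higher in each iKO liver than in each WT liver were Cish (2.11, adjusted p = 0.0562 by edgeR), Socs2 (1.58, 0.0569) and Igf1 (0.62, 0.122). Their lowest values were in the livers without Y-linked reads. In FPKM, without TMM factors, Igf1 overlapped, at 75.3 in WT 1 and 70.2 in iKO 1. Cux2, also uncalled, was by contrast highest in those livers, at 0.212, 5.86 and 5.7 CPM across WT 1 to 3 against 0.533, 0.965 and 1.24 CPM across iKO 1 to 3. Its log2 difference was -2.08 (SE 0.99, adjusted p = 0.198 by edgeR) and 2.09 with the Y-linked term. Jak2 was lower in each iKO liver, also uncalled (-0.73, 0.0602). Of the 4 PAR bZIP genes, Dbp was at 0.797, 1.24 and 2.27 CPM across WT 1 to 3 against 99.8, 141 and 144 CPM across iKO 1 to 3 (6.47, SE 0.37, adjusted p = 0.000153), and Tef rose by 2.05 on the log2 scale (adjusted p = 0.0017). Dbp and Tef are outputs of the circadian clock. The hour of collection is not given in the labels, so an hour that differed between the groups cannot be told apart from the genotype, and its part in the P450 values was not tested.

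Near-identical copies bear on many of these values. In 34 of 55 tested members (61.8%) no library had a whole expected count, beside 29.2% of all tested genes, a mark of reads shared between genes or transcripts. Among tested members with a relative in these families of at least 90% transcript identity this held for 20 of 24, and among those without one for 14 of 31. Members such as Cyp2c23, Cyp2c70, Cyp2f2, Cyp4b1 and Cyp4v3 had whole counts in every library, and Cyp3a59, Cyp2c40 and the Cyp4a12 pair did not.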

How the data were processed

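Messenger RNA levels were measured by RNA sequencing in 6 mouse livers, 3 labelled WT and 3 labelled iKO. HISAT2 2.0.4, Bowtie2 2.2.5 and RSEM 1.2.12 with the build mm9 are named in the submitters' processing notes. The authors deposited expected counts, which need not be whole (64.9% to 68.3% were, within 0.001), and FPKM and TPM values, scaled by the authors for library size and transcript length. The strand setting of the counting was not given in the sources used here. Expected counts were rounded and fitted across all genes with edgeR 4.0.16 in R 4.3.3 (filterByExpr, TMM, robust quasi-likelihood fit and F test, p adjusted after Benjamini and Hochberg over 13160 genes, threshold 0.05). Each standard error is the size of the log2 difference divided by the root of its F statistic. Alternatives used DESeq2 1.42.0 and limma 3.58.1. The fits were tested on simulated counts with changes of known size and no Y-linked effect. Fewer genes were changed there than were called in the data, and each gene's spread came from the model with the labels alone. The rates may thus differ from those in the data. The main fit recovered 28% of 2-fold and 81% of 4-fold changes, and 5 of its 114 calls were false. The fit with the Y-linked term recovered 5% and 62%, and 15 of its 82 calls were false. A call lost or gained with that term is therefore weak evidence. A library counted as holding Y-linked reads above 10 expected counts of Ddx3y and Kdm5d together. Transcript identity came from blastn 2.17.0. Members and lists were chosen with earlier results of these data known. Named members are those called, the leading gene of each subfamily at 1 FPKM or more and the tested members of the sex-biased, AhR, CAR and PXR and PPAR alpha lists; of each other list, up to 3 called genes are named, and Nek7. Other members, single marker genes and uncalled genes of the lists were named after their values were seen.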

Additional observations from a re-analysis of the deposited data

How the results depend on the processing

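Of 35 named members under 18 alternatives, 504 of 630 values kept direction and side of the threshold, 43 lost the call, 16 gained it and 67 changed sign. Those 67 were in 19 members, and the cause was not tested. Cyp3a59 kept its call in all 18 alternatives. The count of called members was 5 with RLE and with upper-quartile factors, 4 with limma-voom, 3 without a filter on low counts, 8 with DESeq2, 2 with limma-trend on log2(FPKM + 1) or log2(FPKM + 0.1), 2 with a transcript length offset, 2 with the Y-linked term, 1 in libraries with Y-linked reads alone and 1 with the length offset and the Y-linked term. Leaving out 1 library at a time gave 1 (without WT 2 or WT 3) to 17 (without WT 1). Over all genes 1942 were called with RLE factors, 2078 with upper-quartile factors, 1914 with limma-voom, 1982 without the filter and 2559 with DESeq2. On log2(FPKM + 1) it was 1352, on log2(FPKM + 0.1) 1353 and with the length offset 1505. For all genes the count of 2024 became 184 with the Y-linked term, 140 in libraries with Y-linked reads alone, 165 with the length offset and the Y-linked term, and 493 (without WT 2) to 1815 (without WT 1) with 1 library left out; it was 944 without WT 3 and 938 without iKO 3. Of the partner and regulator lists, 15 calls became 4 with the Y-linked term, 3 in libraries with Y-linked reads alone, 4 with the length offset and the Y-linked term, and 6 to 15 with 1 library left out (6 without WT 2, 9 without WT 3). The 5 lower calls among the 15 were lost with the length offset alone (10 higher, 0 lower; adjusted p from 0.0550 to 0.154), with the Y-linked term, and without WT 2 or iKO 3. By higher against lower calls over all genes, the split was 962 to 1062, with upper-quartile factors 830 to 1248 and on log2(FPKM + 1) 421 to 931.

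Replicate numbers of the labels did not pair the livers: same-numbered livers correlated at 0.2067, 0.2181 and 0.0458 in their deviations from the group means, and WT 2 correlated best with iKO 3 (0.3342). With the replicate number as a block, 5 members, 1710 genes in all and 16 partner genes were called. The 5 members were all lower and not the same set: Cyp1a1 and Cyp2c23 were lost, and Cyp2b13 and Cyp3a41a were gained.

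The members whose sign changed are given as log2 differences with the Y-linked term, in libraries with Y-linked reads alone, and with the length offset and Y-linked term, in this order. Cyp2a4 was at 1.63, 1.63 and 1.49, Cyp2b10 at 0.53, 0.54 and 0.40, Cyp2b13 at 0.36, 0.35 and 0.24, and Cyp2b9 at 4.53, 4.54 and 4.42. Cyp2c37 was at 0.91, 0.93 and 0.77, Cyp3a41a at 1.10, 1.09 and 0.98, and Cyp4a14 at 0.75, 0.76 and 0.73. Cyp2d9 was at -0.57, -0.55 and -0.77, Cyp2f2 at -0.08, -0.07 and -0.22, and Cyp4a12a at -1.51, -1.48 and -1.53. Cyp4a12b was at -1.19, -1.17 and -1.22, and Cyp4a32 at -0.69, -0.67 and -0.83. On log2(FPKM + 1) Cyp2c50 was at -0.03, Cyp2d26 at -0.12 and Cyp2g1 at -0.00, and on log2(FPKM + 0.1) Cyp2c50 was at -0.03, Cyp2d26 at -0.12 and Cyp4a31 at -0.00. With the length offset Cyp2d26 was at -0.08 and Cyp4v3 at 0.04, and with the Y-linked term added Cyp2c50 at -0.06. With 1 library left out, Cyp2c29 ranged from -0.61 to 0.07, Cyp2c37 from -0.44 to 0.19, Cyp2d26 from -0.13 to 0.22, Cyp2d9 from -0.21 to 3.86, Cyp2f2 from -0.06 to 0.53, Cyp2g1 from -0.22 to 0.53, Cyp2u1 from -1.77 to 0.19, Cyp4a12a from -1.44 to 7.91, Cyp4a12b from -0.19 to 8.76, Cyp4a31 from -0.13 to 0.49, Cyp4a32 from -0.08 to 1.16 and Cyp4v3 from -0.26 to 0.23. Depth limits Cyp1a1, Cyp1b1 and Cyp3a16, all below 2 CPM in every liver, and 13 of the 15 untested members, at or below 1 CPM.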

Other observations

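P450s of families 5 and above, which make and break sterols, bile acids and retinoids, were read beside the members. Of 19 such genes 13 were tested and 1 was called: Cyp7a1, the first enzyme of bile acid synthesis from cholesterol, was at 37.0, 47.5 and 79.3 CPM in the 3 WT livers, with 155, 274 and 159 CPM in iKO 1 to 3 (log2 difference 1.84, SE 0.33, adjusted p = 0.00988 by edgeR). Each iKO liver was above each WT liver. With the Y-linked term the value was 2.40 (adjusted p = 0.0519). Cyp7b1, an oxysterol hydroxylase, was at 174, 16.2 and 16.8 CPM across WT 1 to 3 against 213, 98.7 and 71.0 CPM across iKO 1 to 3, low in the 2 livers without Y-linked reads, as was Cyp2d9. Cyp17a1, a steroid hydroxylase, was at 3.61, 60.8 and 41.2 CPM in the 3 WT livers, with 13.4, 12.5 and 14.4 CPM in iKO 1 to 3, high in those 2 livers, as was Cyp2b9. With the Y-linked term the log2 difference of Cyp17a1 turned from -1.39 to 1.89 and was called (adjusted p = 0.0283), a value that rests on WT 1 as the one WT liver with Y-linked reads. In the 3 against 3 comparison Cyp7b1 and Cyp17a1 were not called (adjusted p = 0.645 and 0.384). Both were picked after their values were seen.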
